A study of Homo sapiens with 6 samples.

Results

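The heat shock and chaperonin genes described here encode the folding machinery of the cytosol and of mitochondria. They comprise the heat shock factors HSF1 and HSF2, the HSP70, HSP110, HSP90 and small heat shock proteins, J-proteins, BAG proteins, co-chaperones of HSP90, the mitochondrial chaperones, the CCT chaperonin and prefoldin. Members were chosen by name from a list of 47 genes, and 46 of them were rows of the deposited table, which holds 32692 genes. HSPB11 was not analysed here. RNA was measured in DU145, an established human prostate carcinoma cell line, after 24 h with DMSO, the solvent, or with 5 µM OTI-611, a compound for which the labels give only this code. The series title names the chromatin remodeller CHD1L as the target of the study. Each group held 3 libraries, numbered 1 to 3 as in the labels, and all 6 came from the same unmodified line at the same time point. The labels do not say whether they were separate cultures, so p-values measure the spread between these libraries only, which may be technical.

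Chaperones of the cytosol meet a protein in a sequence. J-proteins deliver unfolded chains to HSP70, BAG and HSP110 proteins make HSP70 release them, HSP90 and its co-chaperones finish signalling proteins such as kinases and steroid receptors, and prefoldin passes actin and tubulin to the ring-shaped CCT chaperonin. In heat or after loss of folding capacity, HSF1 binds heat shock elements, which are inverted repeats of the letters GAA, and raises transcription of many of these genes. Mitochondria and the endoplasmic reticulum (ER) keep chaperones of their own, and the ER set is under the separate control of the unfolded protein response.

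Values were taken as RPKM, reads per gene scaled for gene length and library depth, although the unit is not named with them. On that reading they can be compared between genes, but the annotation behind them is not known, which limits such comparisons. The library DMSO 1 holds whole numbers only and was read as the same quantity without decimals. Depth was estimated at 30.5 and 32.3 M reads (M for mega) in DMSO 2 and 3 and at 37.2 to 37.7 M in the OTI-611 libraries. Depth thus differed between the groups, and its part in the results was not tested. On the first principal component, with 82.3% of the variance, the libraries lay apart by treatment. The epithelial markers KRT8, KRT18, KRT19, EPCAM and CDH1 were above 1 RPKM in every library, and of these 5, KRT8 (102.7 to 108.7 with OTI-611, 145.6 to 153.2 with DMSO) and CDH1 (1.45 to 1.71 against 4 to 4.8) were lower without overlap. Of the fibroblast markers, COL1A1 was listed at 0, 0.661 and 0.735 with DMSO and at 0.163, 0.19 and 0.17 with OTI-611, and COL1A2 was at 0 in 5 libraries and at 0.0103 in DMSO 3. The part of these differences in the results was not tested. The leukocyte and endothelial markers found in the table (PTPRC, CD68, PECAM1 and VWF) stayed under 0.1. Of the markers of androgen-driven prostate cells, KLK3 and TMPRSS2 were near 0 in all 6 libraries.

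Most chaperone genes of the cytosol had lower RNA levels with OTI-611, and a few rose against that direction. Differences are of log2(value + 1), OTI-611 minus DMSO, with p-values from limma adjusted over all 11978 genes with a mean of at least 1, and a gene is called at an adjusted p under 0.05. Of the 38 members tested, 25 fell, 6 rose and 7 did not pass. Over all genes tested, 37.3% fell and 27.8% rose, against 65.8% and 15.8% of the members. After rescaling to the median log ratio 3882 genes fell and 3978 rose, of the members 21 and 7, and after quantile normalization 4115 genes fell and 4085 rose, of the members 25 and 6. Of all genes tested, 65.2% were called in either direction. In the subset of genes with a mean of at least 5, which is nearer to the levels of the members, 75.7% were called, 40.9% as lower and 34.7% as higher. The median log2 difference was -0.22 over the members and -0.05 over all genes tested. In 32 of the 38 members no OTI-611 library overlapped a DMSO library, which held for 70.2% of all genes tested. The 46 members together made up 2.49% to 2.59% of all RPKM in the DMSO libraries and 2.07% to 2.2% in the OTI-611 libraries. RPKM are shares of a library, so a lower value does not tell less RNA of that gene per cell from more RNA of other genes, nor from fewer cells that express it.

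**Figure D1:**
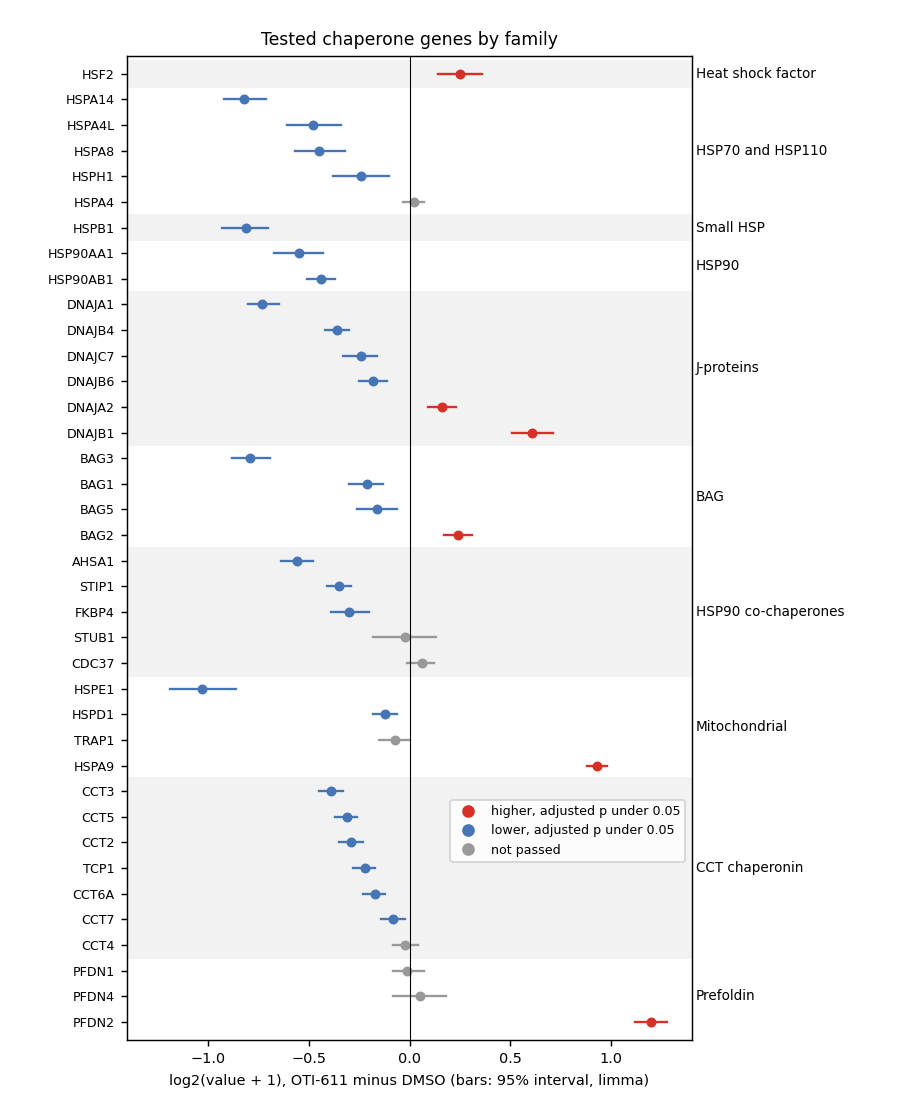
Log2 difference (OTI-611 minus DMSO, x axis) of the 38 tested genes, grouped by family, with 95% intervals from limma. PFDN2 and HSPA9 stand at 1.20 and 0.93 on the right, HSPE1 at -1.03 on the left, and all but HSPA4 of the genes in the cytosolic HSP70, HSP110 and HSP90 groups lie to the left of 0.

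The heat shock element stands close to the start of several of the genes that fell, and the stretches below show it because these genes are the classical targets of HSF1. Promoters were RefSeq windows on GRCh38.p14, from 250 bases before to 50 bases after each transcript start, and 40 members had at least 1 window. Capitals mark the matched letters, runs of 3 units in which GAA and its reverse complement TTC alternate. A run starts with either, with any 2 bases between neighbouring units, so that both strands are covered. In CHORDC1, which was not tested, several such runs overlap and form a longer stretch from -60 to -38. All stretches are written 5′ to 3′ on the strand of the gene and lie before its start.
HSP90AA1 (chr14:102087108-102087144, minus strand): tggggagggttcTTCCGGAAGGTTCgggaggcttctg
HSP90AB1 (chr6:44247819-44247855, plus strand): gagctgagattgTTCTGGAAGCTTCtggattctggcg
HSPA8 (chr11:123062167-123062203, minus strand): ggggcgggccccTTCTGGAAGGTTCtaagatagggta
DNAJB6 (chr7:157336861-157336897, plus strand): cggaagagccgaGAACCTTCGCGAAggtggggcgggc
CHORDC1 (chr11:90223075-90223121, minus strand): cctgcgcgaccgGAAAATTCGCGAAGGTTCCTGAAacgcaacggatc
The run of 3 units was found in windows of 7 of the 40 members (17.5%), which are these 5 with DNAJA1 and HSPD1, against 166 of all 27305 genes with a window (0.608%). The element of HSP90AA1 lies at bases -88 to -76 from the start, that of HSPA8 at -55 to -43, and that of DNAJA1 inside the transcript at bases 4 to 16. HSP90AB1 and HSPA8 hold a second run further upstream, at -165 to -153 and at -230 to -218. The shorter form with 2 units (GAANNTTC or TTCNNGAA), which every run of 3 contains, was found in 20 of the 40 members (50%) and in 16.2% of all genes with a window. Among them are DNAJB1, which rose, HSPB1, which fell, and the 2 stress-inducible HSP70 genes, whose promoter stretches are nearly alike.
DNAJB1 (chr19:14518425-14518456, minus strand): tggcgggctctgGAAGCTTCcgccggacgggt
HSPB1 (chr7:76302479-76302510, plus strand): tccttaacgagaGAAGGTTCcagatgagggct
HSPA1A (chr6:31815425-31815456, plus strand): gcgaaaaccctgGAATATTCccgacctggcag
HSPA1B (chr6:31827621-31827652, plus strand): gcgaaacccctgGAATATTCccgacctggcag
All 6 tested members with the 3-unit run fell (CHORDC1 was not tested). The call of HSPD1, 1 of these 6, was lost after rescaling to the median log ratio (-0.05, adjusted p = 0.34). Across all tested genes with a window, 42 held the 3-unit run, these 6 among them. Of the 42, 20 fell (47.6%) and 9 rose (21.4%), beside 37.3% and 27.8% of all genes tested. The 6 members are part of these 20, so the share that fell repeats in part the result for the members. The shares over all genes also include genes without a window, since only 8820 of the genes tested had one. The median log2 difference of the 42 was -0.12, and -0.05 over all genes tested. Whether the element goes with a fall was not tested. The composite motif of C/EBP and ATF factors, TGATGNAA on either strand, was found in 1 member, HSPA4L, against 4.46% of all genes with a window. A match describes the letters of a window and does not show that a factor binds there.

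**Figure D2:**
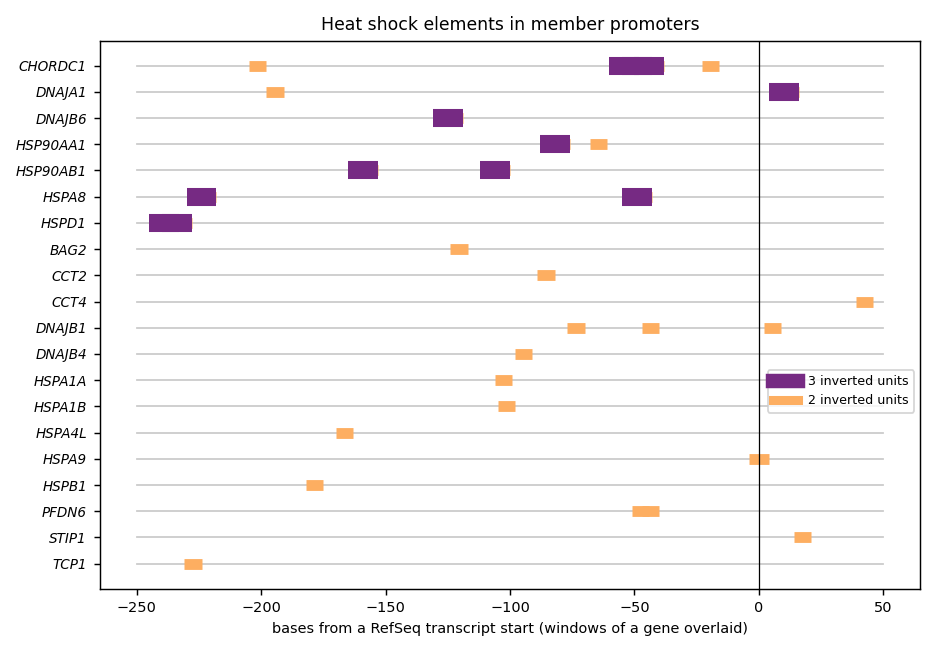
Position of heat shock elements of 3 (purple) and 2 (orange) inverted units in the promoter windows of the members that hold one, in bases from a RefSeq transcript start (x axis). The 3-unit run of HSP90AA1, the nearer of the 2 of HSPA8 and those of CHORDC1 lie within 100 bases before the start. The 3-unit run of DNAJA1 lies behind the start.

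Among the factors, HSF2, which forms complexes with HSF1 and acts in development and stress, rose. It had 9, 8.5 and 9.48 RPKM in the 3 DMSO libraries and 11, 10.6 and 11 in the OTI-611 libraries, a log2 difference of 0.25 ± 0.049 (SE, adjusted p = 0.00146). The groups did not overlap. HSF1 itself was listed at 0 in 4 libraries and at 0.0179 and 0.0153 in DMSO 3 and OTI-611 3. It was 1 of 8 members with a mean under 1, which were not tested: HSF1, HSPA1A, HSPA1B, CHORDC1, DNAJA3, CCT8, PFDN5 and PFDN6. Their highest value in any library was 0.595, for CHORDC1. CCT8 and PFDN5 encode subunits of assemblies that every growing cell uses, and POLR2A, the largest subunit of RNA polymerase II, was also listed at 0 to 0.2103 RPKM. These low listings are therefore given as listed and not read as absence of the RNA. HSPA1A and HSPA1B, the heat-inducible HSP70 genes, lie near each other on chromosome 6 and encode nearly the same protein. They were listed at no more than 0.0781 and 0.021 RPKM, and the comparison planned between them was not made.

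The constitutive HSP70 and both cytosolic HSP90 genes were the most abundant members, and the means of HSPA8 and HSP90AB1 both fell by 26.4% while that of HSP90AA1 fell by 31.6%. HSPA8, the HSP70 of unstressed cells, had 1182, 1151 and 1173 RPKM with DMSO and 894, 773 and 913 with OTI-611 (log2 difference -0.45 ± 0.055 SE, adjusted p = 8.19e-05). HSP90AA1, the inducible HSP90, had 1232, 1244 and 1207 RPKM with DMSO and 847, 765 and 908 with OTI-611 (-0.55 ± 0.053 SE, adjusted p = 1.59e-05). HSP90AB1, the constitutive HSP90, went from 1673, 1739 and 1655 RPKM to 1218, 1221 and 1290 (-0.44 ± 0.032 SE, adjusted p = 2.39e-06). The groups did not overlap for any of the 3 genes, and OTI-611 2 was the lowest library for HSPA8 and HSP90AA1. The HSP90 pair kept its order: the ratio of HSP90AA1 to HSP90AB1 was 0.736, 0.715 and 0.729 with DMSO and 0.696, 0.626 and 0.704 with OTI-611. These genes have processed copies elsewhere in the genome, and the sources used here do not say how reads shared with such copies were counted.

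The other HSP70 and HSP110 genes differed among themselves. HSPA14, which with a J-protein helps nascent chains at the ribosome, fell from 23, 25.1 and 25.5 RPKM to 13, 13.6 and 13.8 (log2 difference -0.82 ± 0.046 SE, adjusted p = 5.56e-07). In GENCODE v29, 17.4% of its exon bases are shared with a second gene of the same name. HSPA4L, a relative of HSP110, fell from 7, 7.75 and 7.73 RPKM to 5.28, 5.01 and 5.02 (-0.48, adjusted p = 7.54e-05). HSPH1, the HSP110 that exchanges the nucleotide of HSP70, fell from 25, 24.9 and 25.4 RPKM to 21.2, 19 and 23.4 (-0.24, adjusted p = 0.00763), and its adjusted p was 0.055 when decimals were dropped in every library. HSPA4, a second nucleotide exchange factor of that kind, had 81, 80.6 and 78.9 RPKM with DMSO and 80.3, 81.8 and 81.8 with OTI-611. Its groups overlapped, and the 95% interval of its log2 difference ran from -0.03 to 0.07.

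HSPB1, the small heat shock protein HSP27, which holds unfolded chains without using ATP, fell from 97, 104 and 105 RPKM to 59.4, 53.3 and 60.8. Its log2 difference was -0.81 ± 0.051 (SE, adjusted p = 1.11e-06), and the highest OTI-611 library lay far under the lowest DMSO library.

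**Figure D3:**
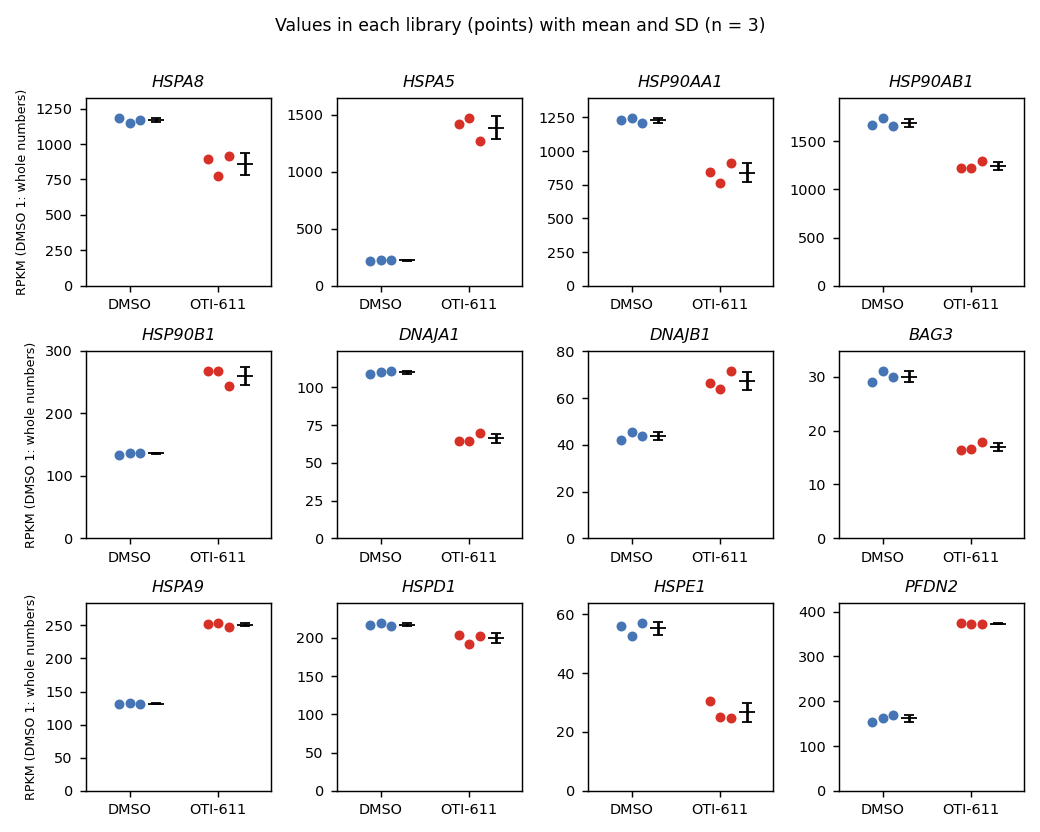
RPKM of 12 genes in each DMSO (blue) and OTI-611 (red) library, with the mean and SD of 3 libraries beside the points. HSPA5, the ER counterpart of HSPA8, rises from 221 to 1385 while HSPA8 falls from 1169 to 860, and the groups do not overlap in any of the 12 panels.

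The J-proteins, which choose the substrates of HSP70, split in direction. DNAJA1, a main partner of HSPA8, fell from 109, 110 and 111 RPKM to 64.2, 64.5 and 69.9 (log2 difference -0.73 ± 0.034 SE, adjusted p = 2.21e-07). DNAJB1, the J-protein of the classical heat shock response, rose from 42, 45.3 and 43.9 RPKM to 66.4, 63.9 and 71.7 (0.61 ± 0.045 SE, adjusted p = 2.86e-06). With DMSO the ratio of DNAJB1 to DNAJA1 was between 0.385 and 0.411, and with OTI-611 it was between 0.991 and 1.03. The change of this log2 ratio was 1.34, against SDs of 0.045 and 0.032 within the groups. DNAJA2, a relative of DNAJA1, rose from 50, 50.9 and 48.9 RPKM to 53.9, 57.2 and 56.5 (log2 difference 0.16, adjusted p = 0.00157). DNAJB4, a relative of DNAJB1, fell from 83, 83.1 and 81.7 RPKM to 64.5, 65.7 and 62.6 (-0.36, adjusted p = 3.18e-06). DNAJC7, which binds both HSP70 and HSP90, fell from 27, 26.8 and 28.5 RPKM to 22.5, 22.9 and 23.8 (-0.24, adjusted p = 0.000316). DNAJB6, which restrains aggregation, fell from 22.8 to 20 RPKM (-0.18). Paralogues thus differed in sign within the A type (DNAJA1 and DNAJA2) and within the B type (DNAJB1 and DNAJB4).

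Of the BAG proteins, which bind HSP70 and release its nucleotide, BAG3 had the largest difference. BAG3, which also directs damaged proteins to autophagy, fell from 29, 31.1 and 30 RPKM to 16.4, 16.6 and 17.9 (log2 difference -0.79 ± 0.043 SE, adjusted p = 4.98e-07). BAG1, the founding member of the family, fell from 14, 14.5 and 13.9 RPKM to 11.9, 12.3 and 12 (-0.21, adjusted p = 0.00087). BAG5, which holds several BAG domains, fell from 23, 24.2 and 24.8 RPKM to 21.9, 21.9 and 20.2 (-0.16, adjusted p = 0.00849), and its call was lost after rescaling libraries to the median log ratio of all genes (-0.10, adjusted p = 0.076). BAG2, an inhibitor of the ubiquitin ligase STUB1, rose from 19, 18.8 and 18.7 RPKM to 22.5, 22.4 and 22.3 (0.24 ± 0.03 SE, adjusted p = 0.000107). The gene RAB23 on the opposite strand covers 42.7% of the exon bases of BAG2, and the sources used here do not say whether the counting used strand.

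Of the HSP90 co-chaperones, 3 of 5 tested fell (60%) and 2 did not pass. Over all genes tested 37.3% fell, and 40.9% of those with a mean of at least 5. AHSA1, which speeds the ATP cycle of HSP90, fell from 192, 196 and 193 RPKM to 137, 124 and 134 (log2 difference -0.56 ± 0.035 SE, adjusted p = 1.11e-06). STIP1, the adaptor that links HSP70 to HSP90, fell from 163, 166 and 162 RPKM to 127, 126 and 133 (-0.35, adjusted p = 4.5e-06). FKBP4, an immunophilin of steroid receptor complexes, fell from 39, 42.6 and 38.7 RPKM to 32.5, 31.3 and 33.4 (-0.30, adjusted p = 0.000203). CDC37, which brings kinases to HSP90, had 170, 175 and 173 RPKM with DMSO and 173, 185 and 181 with OTI-611. Its log2 difference of 0.06 had a 95% interval from -0.01 to 0.12 (adjusted p = 0.108), and it passed after rescaling to the median log ratio (0.13, adjusted p = 0.03) and without OTI-611 1 (0.09, adjusted p = 0.015). STUB1, the ubiquitin ligase CHIP that marks clients of HSP70 and HSP90 for degradation, had 12, 14.5 and 13.5 RPKM with DMSO and 12.2, 13.3 and 13.8 with OTI-611. Its groups overlapped, at a log2 difference of -0.02 with an interval from -0.18 to 0.13 and 42.4% of its exon bases shared with JMJD8. The 5 genes thus ranged from -0.56 to 0.06.

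The mitochondrial chaperones moved apart. HSPA9, the HSP70 of the mitochondrial matrix, which pulls in imported chains, rose from 131, 133 and 131 RPKM to 252, 253 and 248. Its log2 difference was 0.93 ± 0.022 (SE, adjusted p = 8.09e-09), and the mean with OTI-611 was 1.91 times that with DMSO. HSPE1, the lid of the mitochondrial chaperonin, fell from 56, 52.7 and 56.9 RPKM to 30.5, 25 and 24.7 (-1.03 ± 0.072 SE, adjusted p = 2.1e-06). HSPD1, the chaperonin ring that HSPE1 closes, went from 217, 219 and 216 RPKM to 204, 192 and 202 (-0.12 ± 0.027 SE, adjusted p = 0.00299), and its call was lost after rescaling to the median log ratio (-0.05, adjusted p = 0.34).

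HSPD1 and HSPE1 are transcribed away from each other, and the 104 bases between their nearest RefSeq starts are shown because both genes share them while their RNAs differed in response.
HSPD1-HSPE1 (chr2:197500275-197500378, GRCh38.p14, plus strand, read towards HSPE1): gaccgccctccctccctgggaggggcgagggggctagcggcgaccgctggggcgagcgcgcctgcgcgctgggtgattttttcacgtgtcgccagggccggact
This stretch does not hold the 3-unit runs of the heat shock element counted for HSPD1. They lie at bases -245 to -233 and -240 to -228 from another start of HSPD1, at 197499840. That is between this start and that of HSPE1, but outside the promoter window taken for HSPE1. Whether these runs act on HSPE1 was not tested. The ratio of HSPD1 to HSPE1 was 3.88, 4.15 and 3.8 with DMSO and 6.69, 7.68 and 8.2 with OTI-611, a change of 0.90 on the log2 scale. Of the exon bases of HSPE1, 14.2% are shared with HSPD1 and 9.71% with the readthrough gene HSPE1-MOB4 in GENCODE v29. TRAP1, the mitochondrial HSP90, had 36, 38.7 and 37.5 RPKM with DMSO and 35.8, 35.4 and 35.2 with OTI-611. Its adjusted p was 0.0763, and 0.026 without DMSO 1, and 29.3% of its exon bases are shared with DNASE1 on the opposite strand.

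The subunits of the CCT chaperonin, a ring of paralogues that folds actin and tubulin, fell by different amounts. Of 7 subunits tested, 6 fell (85.7%), beside 37.3% of all genes tested and 40.9% of those with a mean of at least 5. CCT4 did not pass, and the median log2 difference of the 7 subunits was -0.22. CCT3, the most abundant, fell from 470, 480 and 478 RPKM to 363, 354 and 372 (-0.39 ± 0.025 SE, adjusted p = 1.24e-06). CCT5 fell from 291, 293 and 288 RPKM to 234, 229 and 238 (-0.31, adjusted p = 2.92e-06), and the antisense gene AC012640.4 covers 30.1% of its exon bases. CCT2 fell from 207, 204 and 197 RPKM to 165, 164 and 167 (-0.29, adjusted p = 9.63e-06). TCP1, the subunit that gave the complex its first name, fell from 164, 163 and 164 RPKM to 142, 137 and 142 (-0.22, adjusted p = 3.86e-05). CCT4 had 169, 167 and 169 RPKM with DMSO and 170, 163 and 165 with OTI-611, and its 95% interval ran from -0.08 to 0.04.

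The most abundant subunit and the one that did not pass can be set side by side in each library: the ratio of CCT3 to CCT4 was 2.78, 2.88 and 2.82 with DMSO and 2.13, 2.18 and 2.25 with OTI-611. Summed over the subunits, CCT made up 0.583% to 0.609% of all RPKM with DMSO and 0.505% to 0.519% with OTI-611. The smallest falls, CCT6A (-0.17) and CCT7 (-0.08), were not called after rescaling to the median log ratio (-0.10 and -0.01, adjusted p = 0.092 and 0.85), and that of CCT7 was also lost without DMSO 2 (-0.07, adjusted p = 0.074) and without a filter on low values (-0.08, adjusted p = 0.11).

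**Figure D4:**
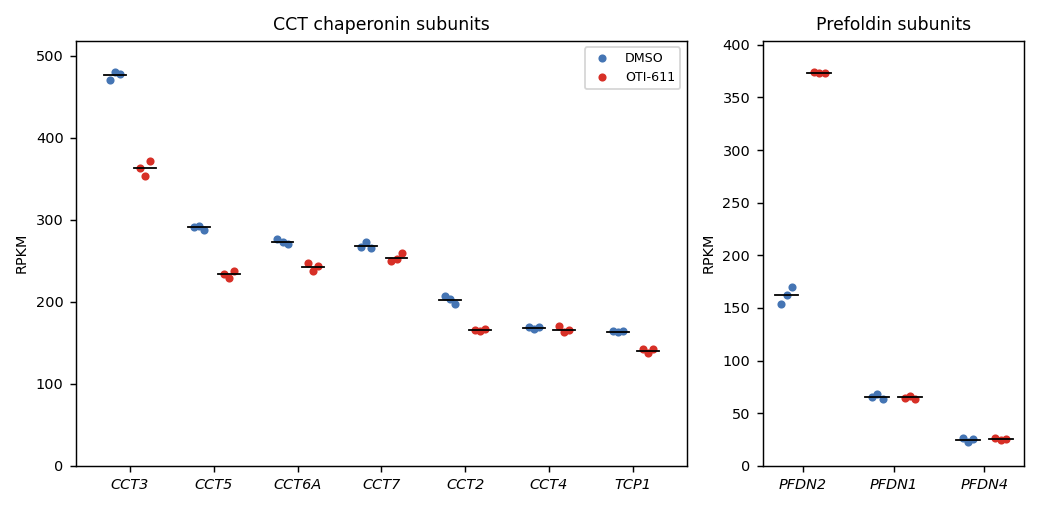
RPKM of the tested CCT and prefoldin subunits in each DMSO (blue) and OTI-611 (red) library, with the group mean as a bar. CCT3 drops from 476 to 363 while CCT4 stays between 163 and 170, and PFDN2 rises from 162 to 373 beside PFDN1, at 65.3 and 65.

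In prefoldin, the hexamer that hands chains to CCT, 1 subunit rose and no tested subunit fell. PFDN2, a beta-type subunit, had 154, 162 and 170 RPKM with DMSO and 374, 373 and 373 with OTI-611, which is 2.3 times the DMSO mean (log2 difference 1.20 ± 0.034 SE, adjusted p = 1.66e-08). Its groups were far apart, and this was the highest log2 difference of the members. PFDN2 lies on chromosome 1 from 161100556 to 161118111 in GENCODE v29, has 677 exon bases, and shares 3.84% of them with NIT1. PFDN1 had 65, 68 and 63 RPKM with DMSO and 64.6, 66.4 and 63.9 with OTI-611, and PFDN4 had 26, 22.3 and 25.6 against 26.6, 24.8 and 25.3. The groups of PFDN1 and PFDN4 overlapped, with intervals from -0.08 to 0.07 and from -0.08 to 0.18. VBP1, the alpha subunit PFDN3, named here after its values were seen, stood at 0.06 (adjusted p = 0.096), so 1 of the 4 prefoldin genes tested rose. Over all genes tested, 27.8% rose. VBP1 passed as higher after quantile normalization (0.08, adjusted p = 0.029), after rescaling to the median log ratio (0.13, adjusted p = 0.027) and without DMSO 2 (0.09, adjusted p = 0.042), which makes 2 of the 4.

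Differences between partners were compared within each library for 9 pairs, 5 of them chosen after the values were seen. The log2 ratio changed by 1.95 for HSPA9 over HSPE1, by 1.21 for PFDN2 over PFDN1, by -0.37 for CCT3 over CCT4, by 1.37 for HSPA9 over HSPA8 and by -0.11 for HSP90AA1 over HSP90AB1 (-0.05 without OTI-611 2). For all 9 pairs the 2-sided exact permutation p was 0.10, and 0.10 after adjustment over the pairs. That is the smallest p that 3 libraries against 3 allow, so the pairs cannot be called at 0.05.

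Further chaperone genes of the cytosol, from a list of 51, also fell more often than they rose. Among the 41 tested, 22 fell (53.7%), 9 rose (22%) and 10 were not called, at a median log2 difference of -0.14, beside 37.3% lower and 27.8% higher over all genes tested. After rescaling to the median log ratio 17 fell and 11 rose (median -0.07), and after quantile normalization 19 fell and 11 rose (median -0.09). Falls included FKBP5 (-0.70), an immunophilin of HSP90, HSBP1 (-0.78), a binding protein of HSF1, and the stress-inducible polyubiquitin gene UBB, which went from 108, 122 and 112 RPKM to 62.7, 67.4 and 67.9 (-0.78). The highest rise was that of HSPA13, an HSP70 that sits on the membranes of the secretory pathway and not in the cytosol, from 45, 41.4 and 44.3 RPKM to 113, 119 and 114 (1.38, adjusted p = 1.06e-08). Others that rose were DNAJB2 (0.49), BAG4 (0.37), PDCL3 (0.37), a phosducin-like partner of CCT, DNAJC9 (0.31), PDRG1 (0.21), DNAJB14 (0.19) and DNAJB5 (0.14). HSPA6, the strictly heat-inducible HSP70, had a mean under 1, was not tested and is named here after its values were seen: it was listed at 0, 0.249 and 0.183 RPKM with DMSO and at 1.1, 1.25 and 1.97 with OTI-611, and the groups did not overlap. The other 7 genes of the list that were not tested lay at 1.33 RPKM or less in every library. Among them, HSPA12A and TTC4, also named after their values were seen, did not overlap either, in opposite directions. HSPA12A was listed at 1, 1.33 and 1.33 RPKM with DMSO and at 0.541, 0.536 and 0.569 with OTI-611. TTC4 was listed at 0, 0.553 and 0.471 RPKM with DMSO and at 1.05, 0.943 and 0.674 with OTI-611. Absence of overlap held for 70.2% of all genes tested. The call of DNAJB5 (adjusted p = 0.0403) was lost in several alternatives, for example with an adjusted p of 0.059 with the replicate number as a block and 0.14 without OTI-611 2.

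Of 12 further mitochondrial chaperone and protease genes tested, 6 fell and 3 rose (median -0.11), beside 37.3% and 27.8% of all genes tested. After quantile normalization 4 fell and 4 rose, and after rescaling to the median log ratio 4 fell and 3 rose (median -0.05). LONP1, the main protease of the matrix, rose from 63, 67.7 and 68.4 RPKM to 118, 125 and 121 (0.86, adjusted p = 1.25e-07), and GRPEL2 (0.28), a nucleotide exchange factor of HSPA9, and CLPB (0.27), a disaggregase, rose too. HSCB (-0.53), a J-protein of iron-sulfur cluster assembly, and the membrane protease subunits SPG7 (-0.39) and AFG3L2 (-0.21) fell.

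The folding genes of the ER went the other way. Among 22 tested, 18 were higher (81.8%), 1 was lower and 3 were not called (median 0.41). Over all genes tested, 27.8% were higher and 37.3% lower. After quantile normalization 20 of the ER genes rose and 0 fell, and after rescaling to the median log ratio 19 rose and 0 fell. Of the 34 tested members outside mitochondria, 5 rose (14.7%) and 23 fell (67.6%). This difference between compartments was not tested. HSPA5, the HSP70 of the ER, had 218, 221 and 224 RPKM with DMSO and 1418, 1467 and 1271 with OTI-611 (2.64, adjusted p = 4.1e-09). With DMSO the ratio of HSPA8 to HSPA5 was 5.42, 5.21 and 5.24, and with OTI-611 it was 0.631, 0.527 and 0.718, so the ER gene became the more abundant of the pair. HSP90B1, the HSP90 of the ER, rose from 136 to 259 RPKM (0.93), and the ratio of HSP90AB1 to it went from between 12.1 and 12.8 to between 4.54 and 5.31. Summed, the ER folding genes made up 0.46% to 0.463% of all RPKM with DMSO and 0.994% to 1.09% with OTI-611. SERPINH1, the collagen chaperone HSP47, was the 1 that fell (-0.12, adjusted p = 0.0258). Its libraries overlapped, and its call was lost under several alternatives, among them rescaling to the median log ratio (-0.06, adjusted p = 0.28).

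**Figure D5:**
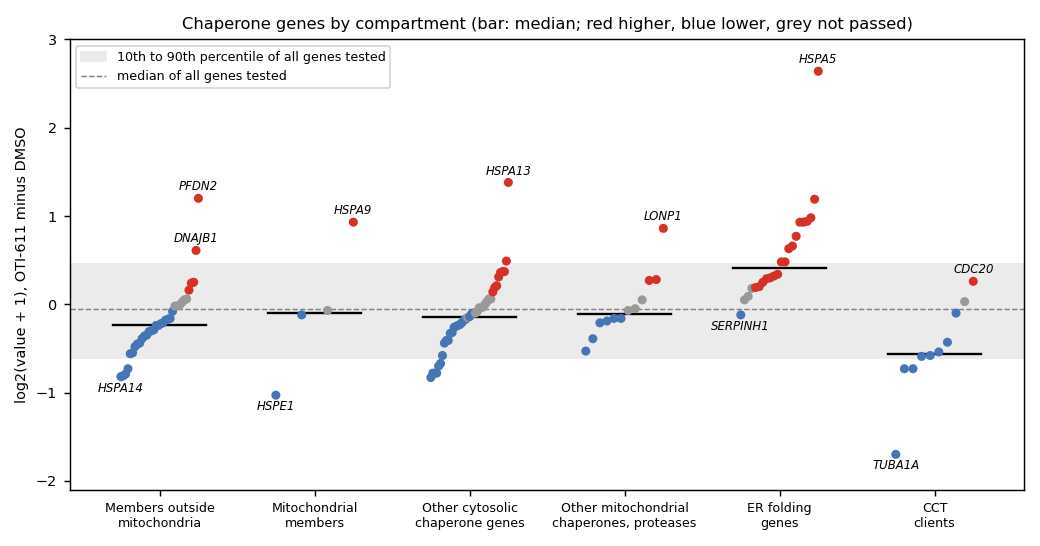
Log2 difference (OTI-611 minus DMSO, y axis) of each tested gene by compartment, with list medians as bars and the 10th to 90th percentile of all genes tested (-0.61 to 0.46) in grey. ER folding genes sit mostly above 0, with HSPA5 at 2.64, and the members outside mitochondria mostly below.

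Known clients of CCT mostly had lower RNA levels as well. Of 10 actin, tubulin and other client genes tested, 8 fell and 1 was not called (median -0.56), while CDC20 (0.26), a mitotic activator folded by CCT, rose. That is 80% lower and 10% higher, beside 37.3% and 27.8% of all genes tested. After quantile normalization 7 fell and 1 rose (median -0.55), and after rescaling to the median log ratio 7 fell and 1 rose (median -0.49). TUBA1A fell from 36, 36.1 and 36 RPKM to 10.9, 9.06 and 11.3 (-1.70), and TUBB6 from 150, 156 and 155 to 91.7, 92 and 93.6 (-0.73). TUBA1B (-0.73) and TUBB4B (-0.58) also fell. The actin genes, named here after their values were seen, differed less than these tubulin genes. ACTB went from a mean of 2044 RPKM with DMSO to 1914 with OTI-611 (-0.10, adjusted p = 0.0138). ACTG1 was the gene not called, at 0.03 with overlapping groups. Tubulin genes are close in sequence, and reads that fit several of them may be split by the counting.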

How the data were processed

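Per the labels' protocols, DU145 RNA was amplified as in Geo-seq, a low-input RNA method, followed by TruePrep library construction. No molecular identifiers are named. The submitters' processing notes name, without roles, TopHat2 2.0.9, HTSeq, Cufflinks 2.1.1, CASAVA 1.7, FastQC and the mouse build mm10, although all 32692 gene IDs are human. The authors deposited 5 columns taken here as RPKM from their values (FPKM cannot be told apart) and DMSO 1 as whole numbers, treated as a score. No column was left unused. Depth was estimated from the steps of low values with GENCODE v29 exon lengths, where 40.2% to 41.5% of low values were whole reads within 0.05.

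Values were analysed as log2(value + 1), which understates changes of low genes, keeping genes whose mean over 6 libraries was 1 or more, with limma 3.58.1 in R 4.3.3 (group as the only term, trended empirical Bayes, two-sided, Benjamini-Hochberg over all genes, threshold 0.05). The planned fit for counts did not apply. The fit was tested on simulated data. Pairs were compared by exact permutation (SciPy 1.17.1). Members and lists were chosen with earlier results of these data known. Named genes follow a rule: all members, then per further list the 4 smallest p-values and the genes against the main direction. Annotation is GENCODE v29 (GRCh38), promoters are RefSeq GRCh38.p14, and the build of the values is not given in the sources used here. Alternatives were other pseudocounts, filters, scalings, dropped decimals, a replicate block and leaving out each library.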

Additional observations from a re-analysis of the deposited data

How the results depend on the processing

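Of the 31 members called, 26 passed with the same direction in all 14 alternatives, and none of the 31 changed direction in any. The exceptions (HSPH1, BAG5, HSPD1, CCT6A and CCT7) are given with their values in the report. The number of all genes called was 7805, and 7756 with the replicate number as a block. With that replicate block 6 members rose and 25 fell, as without it, and no call of a member changed. Deviations of same-numbered libraries correlated at 0.02, 0.00 and -0.06, so the numbers were not taken as pairs. Leaving out 1 library gave 6 to 7 members higher and 24 to 26 lower, and 7130 to 8263 genes called.

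The members' median of -0.22 was -0.19 with a pseudocount of 5, -0.20 after quantile normalization, -0.15 after rescaling to the median log ratio and -0.22 to -0.20 with 1 library left out. The number of ER folding genes that fell was 0 instead of 1 without a filter, after quantile normalization, after rescaling and with decimals dropped, and 0 to 1 with 1 library left out (1 without DMSO 1 or without OTI-611 3). CCT clients that rose numbered 1 to 2 with 1 library left out (2 without DMSO 3). Of the further mitochondrial genes 4 to 6 fell with 1 library left out (6 without DMSO 1 or without OTI-611 3, otherwise 4). Signs turned only in members that did not pass: STUB1 to 0.01 after quantile normalization, 0.04 after rescaling and -0.09 to 0.03 with 1 library left out (above 0 without DMSO 2 and without OTI-611 1), CCT4 to 0.05 after rescaling, PFDN1 to 0.00 after quantile normalization, 0.06 after rescaling and -0.03 to 0.02 with 1 library left out (above 0 without DMSO 2 and without OTI-611 3), and PFDN4 to -0.01 without DMSO 2 (-0.01 to 0.09 with 1 library left out). The cause was not tested.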
